A study of Papio anubis with 588 samples.

Results

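Skeletal muscle of the olive baboon (Papio anubis), a monkey of the Old World, was compared after 2 years on a diet rich in cholesterol and fat (HCHF) with muscle of the same animals at 0 years on a diet poor in both (LCLF). The libraries described are those of animals with a muscle library on both diets in the authors' quality-controlled table, 190 libraries of 95 animals, out of 570 libraries of 99 animals from muscle, liver and adipose tissue. Each diet therefore has 95 muscle libraries, and each animal is its own control. No animal kept on the LCLF diet for the same time was analysed here, so the HCHF diet cannot be told apart from 2 years of age and of calendar time. The labels name neither the muscle that was biopsied nor the animals' age or sex.

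Skeletal muscle burns fatty acids and glucose. Fatty acids are freed from lipoproteins at the capillary wall, activated in the fibre, carried into mitochondria by the carnitine shuttle and shortened there by beta-oxidation. Fibres fall into fast types, built for power and rich in glycolytic and creatine kinase enzymes, and slow types, built for endurance, each with its own myosins and troponins. Capillaries, fibroblasts, resident macrophages and nerve endings lie between the fibres, so bulk RNA of a biopsy mixes them all.

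Total counts per library, in M (mega-counts), were 7.95, 19.51 and 35.78 M (lowest, median, highest) on HCHF and 7.19, 18.81 and 36.84 M on LCLF. Of the 95 animals, 16 were assigned to library batch 1 (unstranded kit, single-end reads, median 10.8 M) and 79 to batch 2 (stranded kit, paired-end reads, median 19.74 M). Both libraries of an animal shared the batch. The label of the tissue fitted the markers, since ACTA1, the actin of skeletal muscle, took 5.35% of all counts on HCHF and 5.65% on LCLF. The summed level of 14 fast fibre markers was 54040, 152200 and 238200 counts per mega-count (CPM) on HCHF and 91830, 165900 and 230200 CPM on LCLF.

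A set of 24 libraries stood apart from the other 166 in patterning genes, transcription factors that record where in the body a muscle arose. The set was found after the values were seen, from a score equal to the mean log2 CPM of BARX2, IRX3 and HOXD9 minus that of PAX3, HOXA11 and SIX2. The lowest score in the set was 2.92 and the highest among the other libraries was -0.47, a gap of 3.39 where the next widest gap was 1.06. BARX2, a homeobox factor, had 7.79, 45.8 and 71.2 CPM (lowest, median, highest) in the set and 0, 0.293 and 5.25 CPM in the other libraries. PAX3, a factor of muscle precursors, had 0, 0.0197 and 0.366 CPM in the set and 0.68, 3.28 and 10.02 CPM elsewhere. Neither gene's ranges overlapped between the set and the other libraries. Both genes are part of the score, so a difference was built in by the selection. The ranges of the score's other genes, IRX3, HOXD9, HOXA11 and SIX2, overlapped.

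The set was spread unevenly over the diets, with 20 HCHF and 4 LCLF libraries. These came from 24 different animals, none with both of its libraries in the set, and 5 of the libraries were in batch 1. Genes outside the score differed as well. PITX1, a limb homeobox factor, had 34.6, 64.3 and 98.6 CPM in the set and 0.804, 6.95 and 32.7 CPM elsewhere. HOXC10, a homeobox gene of the hindlimb, had 39.9, 95.9 and 147.8 CPM in the set and 48.8, 127.1 and 232.1 CPM elsewhere, with overlapping ranges. What set these libraries apart was not tested, and most results that follow are given both for all 95 animals and for the 71 animals with no library in the set.

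**Figure D1:**
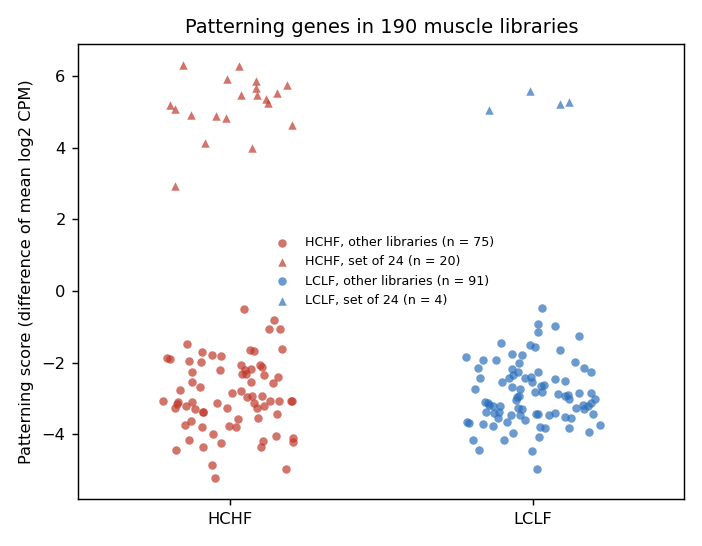
Patterning score of each of the 190 muscle libraries (y axis, mean log2 CPM of BARX2, IRX3 and HOXD9 minus that of PAX3, HOXA11 and SIX2), with HCHF left and LCLF right. Triangles mark the set of 24 libraries, 20 HCHF and 4 LCLF, all at 2.92 or above, and circles the other 166, all at -0.47 or below.

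Further libraries stood apart in ways shared more evenly by the diets. On the first axis of the libraries' deviations from their diet and batch means, which held 24.1% of the variance, 11 HCHF and 14 LCLF libraries of 17 animals lay beyond the median plus 3 median absolute deviations. Summed hepatocyte markers, which muscle should lack, passed 100 CPM in 17 HCHF and 15 LCLF libraries of 22 animals. They reached 23650 CPM on HCHF and 4048 CPM on LCLF. This set lay mostly in library batch 1, with 24 of its 32 libraries and 15 of its 22 animals. A total of 50 animals had a library in at least 1 of the 3 sets, which leaves 45, all of batch 2.

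Of 13621 genes tested in all 95 animals, 912 were higher on HCHF (6.7%) and 1077 were lower (7.91%), at an adjusted p under 0.05 (edgeR's quasi-likelihood test within animals). Most changes were small. The median log2 fold change of HCHF over LCLF was 0.18 among the higher genes and -0.18 among the lower ones, and 79 genes were higher and 17 lower by at least 0.5. In the 71 animals without a library in the patterning set, 333 genes were higher (2.45%) and 461 lower (3.39%). A change of at least 0.5 was reached by 27 and 12 of them. Of the 333 and 461 genes, 281 were among the 912 and 412 among the 1077. Leaving out the animals of all 3 sets left 67 higher and 67 lower genes in 45 animals (0.496% each). The genes named here by rule included 78 that passed as higher and 73 as lower in 95 animals. All of them kept their direction in the 71 animals, where 28 of the 78 and 41 of the 73 passed. The 71 are part of the 95 animals in which these genes were called. Shared calls and directions were thus favoured from the start and are no separate check. The median ratio of a gene's change in the 71 animals to that in all 95 was 0.8 for the higher and 0.947 for the lower ones.

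Few genes moved the same way in nearly all animals. Among all tested genes, 75 were higher in at least 67 of 95 animals and 131 were lower in as many. The mean change between the diets took a median of 10.7% of the summed squared within-animal changes among the called genes and 1.75% among all tested genes. The highest share was 48%. Batch 2 alone gave 500 higher and 575 lower genes, and batch 1, with 16 animals, gave 2 and 0, with 1619 genes at an unadjusted p under 0.05. Of the genes called higher in batch 2 and tested in batch 1, 414 of 451 (91.8%) also had a positive fold change in batch 1, and of those called lower 477 of 546 (87.4%) had a negative one. Over all genes tested in both batches the positive share in batch 1 was 52.6%. The 5 patterning set libraries of batch 1 were all HCHF, and those of batch 2 were mostly HCHF. The batches thus share this imbalance, and their agreement without the set was not tested.

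Of 25 tested genes of fatty acid oxidation, 9 rose and 0 fell on HCHF in 95 animals, with a median log2 fold change of 0.11 over the list, beside 0.00 over all genes tested. In the 71 animals 4 rose and 0 fell, with a median of 0.09, and in the 45 animals outside all 3 sets 2 rose and 0 fell, with a median of 0.04. CPT1B, the muscle form of the enzyme that loads fatty acids onto carnitine, had 19.5, 87.4 and 230.5 CPM (lowest, median, highest; scaled by TMM, as for all gene levels here) on HCHF and 15.6, 65.9 and 208 CPM on LCLF. The ranges overlapped over most of their length, but CPT1B was higher on HCHF in 71 of 95 animals. Its log2 fold change was 0.42 ± 0.08 (SE, n = 95 animals, as for all fold changes of 95 animals; edgeR adjusted p = 0.000105) and 0.31 ± 0.08 in the 71 animals (adjusted p = 0.0159).

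Genes of later steps of the same route were among those that rose. SLC25A20, the carrier that moves acylcarnitine across the inner mitochondrial membrane, had 12.6, 35.8 and 73.9 CPM on HCHF and 13.7, 31.4 and 66.8 CPM on LCLF. Its change was 0.26 ± 0.05 in 95 animals and 0.26 ± 0.05 in the 71 (edgeR adjusted p = 0.000167 and 0.00205). HADHA and HADHB encode the trifunctional protein, which shortens long-chain acids. HADHA had 115, 268 and 618 CPM on HCHF and 103, 226 and 559 CPM on LCLF, a change of 0.25 ± 0.04 that was 0.18 ± 0.05 in the 71 animals. HADHB, named after its value was seen, was 0.22 ± 0.05, and 0.16 ± 0.06 in the 71, where it did not pass (edgeR adjusted p = 0.0951). ACAA2, the thiolase of the last step, changed by 0.37 ± 0.07, and by 0.30 ± 0.08 in the 71. CPT1B, HADHA, SLC25A20 and ACAA2 also passed without the animals apart on the first axis, without those with hepatocyte markers and with no animal block.

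ECH1, an isomerase for unsaturated fatty acids, was chosen after its value was seen because it was among the 10 smallest p-values. It had 82, 221 and 521 CPM on HCHF and 71.5, 184 and 497 CPM on LCLF and was higher in 75 of 95 animals. Its change was 0.24 ± 0.04, and 0.20 ± 0.04 in the 71 animals (edgeR adjusted p = 3.64e-06 and 0.000434).

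Supply of fatty acids to the fibre showed changes in both directions. Of 12 tested genes of uptake and activation, 2 rose and 1 fell, and 1 rose and 2 fell in the 71 animals. ACSL1, which activates long-chain fatty acids, rose by 0.30 ± 0.06, with 32, 148 and 639 CPM on HCHF and 48.8, 119.9 and 293 CPM on LCLF. GPIHBP1, the capillary protein that holds lipoprotein lipase, fell by 0.30 ± 0.06 on the log2 scale, with 9.34, 35.6 and 154 CPM on HCHF and 11.8, 44.9 and 182 CPM on LCLF. Both passed in the 71 animals, at 0.23 ± 0.07 and -0.32 ± 0.07 (edgeR adjusted p = 0.036 and 0.00277), and GPIHBP1 did not pass with no animal block.

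LPL, the lipase itself, changed by -0.13 ± 0.08 in 95 animals and did not pass (edgeR adjusted p = 0.284), while in the 71 animals it was -0.30 ± 0.06 and did (adjusted p = 0.00218). CD36, the fatty acid receptor of the fibre surface, had 21.7, 53.6 and 109 CPM on HCHF and 27, 54.4 and 88.1 CPM on LCLF, with a change of 0.00 ± 0.05, and of -0.08 ± 0.05 in the 71. Of 14 lipid droplet and lipolysis genes 3 rose and 1 fell, and 1 rose and 0 fell in the 71. LIPE, the hormone-sensitive lipase, changed by 0.24 ± 0.06, and PLIN5, a droplet coat protein of oxidative tissue, by 0.26 ± 0.09. LIPE was 0.18 ± 0.07 and PLIN5 0.08 ± 0.09 in the 71 animals, and neither passed (edgeR adjusted p = 0.0841 and 0.604).

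The list of fuel switch genes and targets of the fatty acid sensor PPAR, by contrast, gave no call. It does not cover every PPAR target and holds none of the genes called above. Of 15 tested, 0 passed in 95 animals by edgeR, and 0 in the 71. PDK4, which shuts pyruvate out of mitochondria during fasting, had 10.2, 171 and 10310 CPM on HCHF and 3.63, 235 and 2972 CPM on LCLF. Its log2 fold change was -0.01 ± 0.26, and -0.23 ± 0.29 in the 71 animals, and it was higher on HCHF in 46 of the 95 animals and lower in 49. The SD of its within-animal change was 2.38 on the log2 scale, where the median tested gene had 0.524, so that animals moved far in both directions.

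**Figure D2:**
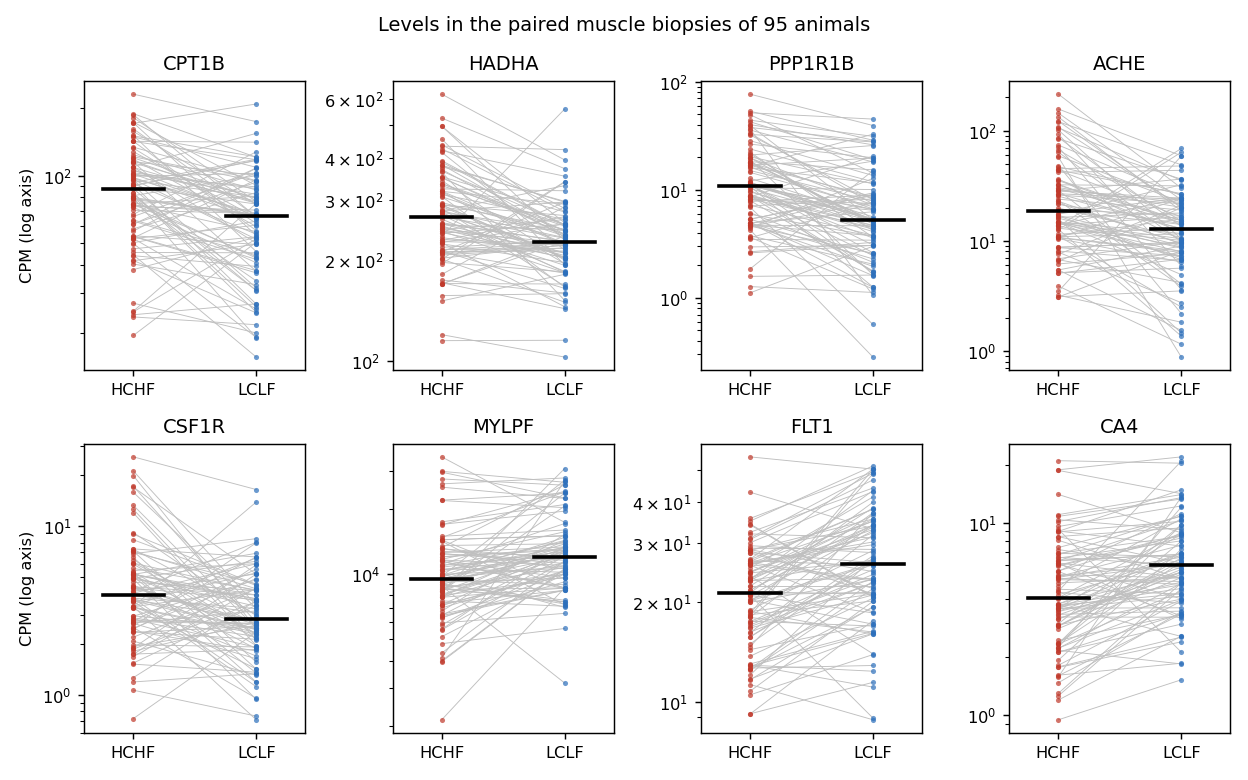
TMM-scaled levels in CPM (y axes, log scale) of 8 genes in the paired muscle biopsies of 95 animals, with HCHF left and LCLF right. Points are libraries, grey lines join the libraries of an animal and black bars are medians, which lie higher on HCHF for CPT1B, HADHA, PPP1R1B, ACHE and CSF1R and lower for MYLPF, FLT1 and CA4, with wide overlap in every panel.

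Of 14 tested genes of the fast contractile apparatus, 9 fell and 0 rose on HCHF in 95 animals, with a median of -0.25, and 3 fell and 0 rose in the 71 animals, with a median of -0.16. MYLPF, the regulatory light chain of fast myosin, had 2132, 9472 and 34770 CPM on HCHF and 3151, 12050 and 30710 CPM on LCLF. It was lower on HCHF in 69 of 95 animals, with a change of -0.33 ± 0.07 and of -0.23 ± 0.07 in the 71 (edgeR adjusted p = 0.000402 and 0.0344). MYL1, a fast essential light chain, had 3447, 10710 and 17950 CPM on HCHF and 4016, 13100 and 21690 CPM on LCLF. The diets overlapped, and MYL1 was lower on HCHF in 72 animals, at -0.26 ± 0.06 and at -0.21 ± 0.07 in the 71 (edgeR adjusted p = 0.000701 and 0.0423).

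TNNI2, the fast inhibitory troponin, changed by -0.28 ± 0.06 and passed in the 71 animals as well, at -0.20 ± 0.07 (edgeR adjusted p = 0.00135 and 0.0475). MYH1, the myosin of fast glycolytic fibres, had 6221, 35900 and 90340 CPM on HCHF and 15010, 41380 and 82250 CPM on LCLF. Its change of -0.33 ± 0.08 was -0.22 ± 0.09 in the 71 animals and did not pass there (edgeR adjusted p = 0.112). MYH2, the myosin of fast oxidative fibres, was 0.19 ± 0.07 in 95 animals and did not pass (edgeR adjusted p = 0.0514). Myosin and troponin genes have near copies, and the sources used here do not give how the authors counted reads shared between them.

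The summed level of the 14 fast fibre markers was higher on HCHF in 29 of the 95 animals and in 24 of the 71. The fast fibre calls also moved with the libraries kept out by the authors. With these libraries added (97 animals), MYLPF was -0.31 and MYH1 -0.28, and neither passed. One added LCLF library had 0.0229% of its counts on fast fibre markers, where the 95 LCLF libraries had between 9.18% and 23.0%. Without the animals of all 3 sets, 0 of the 14 genes passed in 45 animals by edgeR.

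Of 11 tested slow fibre genes, 0 rose and 0 fell, with a median of 0.01 in 95 animals and of -0.11 in the 71. The summed level of the slow markers was 8691, 27750 and 68130 CPM on HCHF and 8273, 25150 and 54860 CPM on LCLF. It was higher on HCHF in 52 of 95 animals. Of 9 genes of the high-energy phosphate and purine cycle 2 fell and 0 rose, and none of the 9 passed in the 71 animals by edgeR. CKM, muscle creatine kinase, had 11060, 27150 and 41740 CPM on HCHF and 12960, 30690 and 45420 CPM on LCLF, a change of -0.18 ± 0.05. AK1, adenylate kinase, changed by -0.25 ± 0.06. CKM was -0.16 ± 0.06 and AK1 -0.19 ± 0.07 in the 71 animals, and neither passed (edgeR adjusted p = 0.091 and 0.0879).

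Of 17 glycolysis genes, 2 fell and 0 rose in both sets of animals. PKM, the pyruvate kinase of muscle, was -0.17 ± 0.05 in 95 animals and -0.19 ± 0.06 in the 71 (edgeR adjusted p = 0.0173 and 0.0254). Its call was lost with no animal block. Of 15 glycogen genes 2 rose and 0 fell, and 1 rose in the 71 animals. Of 15 genes of the tricarboxylic acid cycle 1 rose and 1 fell, a share near that of all genes, and 0 and 0 in the 71.

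In the respiratory chain and in ribosomes the calls were all falls, of a minority of the genes. Of 31 oxidative phosphorylation genes 10 fell and 0 rose (median -0.08), and 4 fell and 0 rose in the 71 animals (median -0.09). NDUFC1, a subunit of complex I, had 29.2, 56.7 and 96.5 CPM on HCHF and 32, 62.6 and 104 CPM on LCLF. The diets overlapped nearly throughout, and its change was -0.18 ± 0.04, and -0.19 ± 0.04 in the 71 animals (edgeR adjusted p = 0.00033 and 0.00273). Of 74 mitochondrial ribosome genes 12 fell, and 4 in the 71 animals, with none higher in either. Of 72 cytosolic ribosome genes 10 fell, and 4 in the 71, again with none higher, where 3.39% of all genes were lower in the 71. MRPS9, of the mitochondrial small subunit, changed by -0.14 ± 0.04, and by -0.18 ± 0.04 in the 71 animals. RPL8, of the cytosolic large subunit, changed by -0.13 ± 0.03, and by -0.11 ± 0.04 in the 71, where it did not pass (edgeR adjusted p = 0.0538). Without the animals with hepatocyte markers, where 73 animals are left and 3.05% of all genes were higher and 3.62% lower, the counts lower were 1 of 31, 1 of 74 and 0 of 72.

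**Figure D3:**
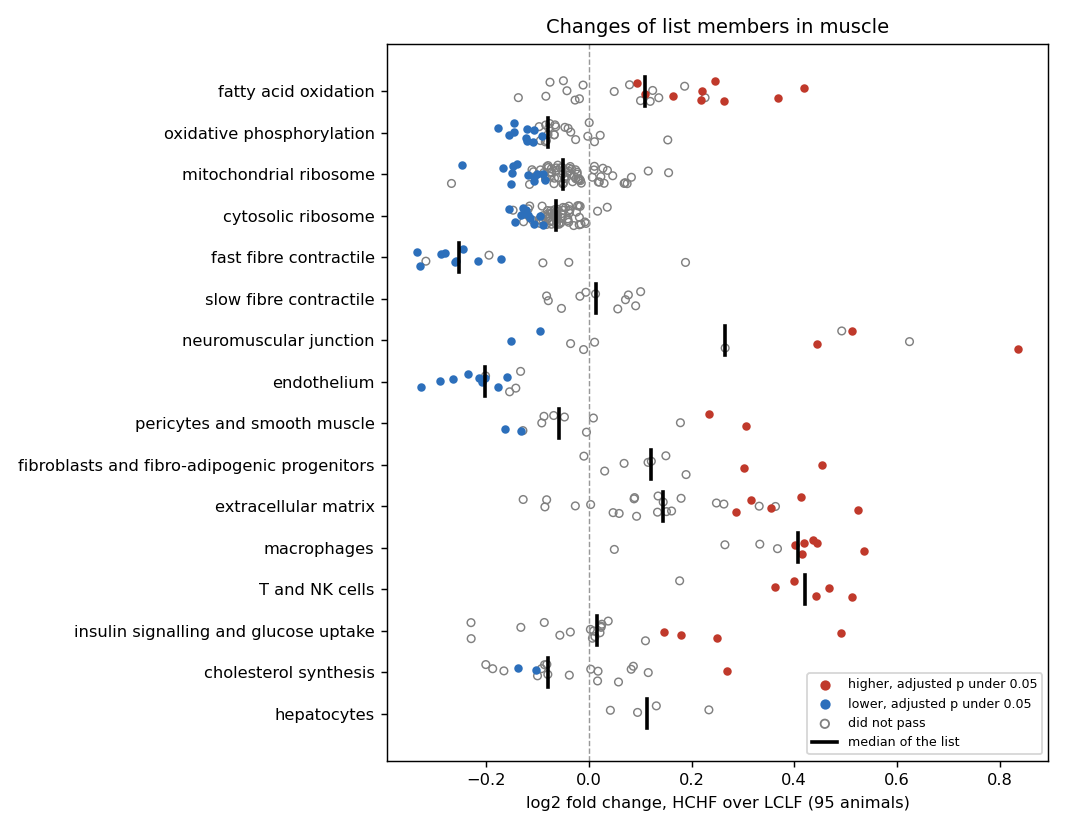
log2 fold change of HCHF over LCLF in 95 animals (x axis) for the tested members of 16 gene lists (rows). Filled points passed the test (red higher, blue lower), open points did not, and black bars are list medians, lowest for fast fibre genes (-0.25) and at 0.41 and 0.42 for macrophage and for T and NK cell markers.

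Of 13 tested endothelial markers 9 fell and 0 rose on HCHF in 95 animals, with a median of -0.20, and 6 fell and 0 rose in the 71, with a median of -0.21. FLT1, a receptor for vascular endothelial growth factor, had 9.2, 21.3 and 54.6 CPM on HCHF and 8.84, 26.1 and 51.3 CPM on LCLF. It was lower on HCHF in 69 of 95 animals despite the overlap, and in 51 of the 71. Its change was -0.33 ± 0.05, and -0.33 ± 0.06 in the 71 animals (edgeR adjusted p = 3.64e-06 and 8.48e-05). ESAM, a junction protein, was -0.29 ± 0.06 and EMCN, a sialomucin of capillaries and veins, -0.26 ± 0.06. Both values were alike in the 71 animals (-0.30 ± 0.06 and -0.26 ± 0.06), and with no animal block neither passed. In bulk samples fewer cells of a type and less RNA per cell cannot be told apart.

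Of 7 capillary endothelium markers 2 fell and 0 rose, in 95 animals and in the 71. The 15 largest falls by rule included CA4, KLF2, TMEM88, TIMP4, GATA2 and FCN3, which were not tested as a group. CA4, the carbonic anhydrase on the capillary surface, had 0.945, 4.07 and 21 CPM on HCHF and 1.52, 5.99 and 22 CPM on LCLF. It was lower on HCHF in 72 of 95 animals, by a factor of 0.712 (-0.49 ± 0.08), and by -0.51 ± 0.08 in the 71 (edgeR adjusted p = 9.54e-06 and 8.48e-05). KLF2, a transcription factor induced by blood flow, had 4.81, 12.7 and 73.8 CPM on HCHF and 5.75, 16.7 and 73.4 CPM on LCLF. Its change was -0.40 ± 0.08, and -0.51 ± 0.09 in the 71 animals. TMEM88 was -0.41 ± 0.07, TIMP4, an inhibitor of matrix proteases, -0.39 ± 0.07 and GATA2, a transcription factor of endothelium and blood, -0.38 ± 0.08, and all 3 passed in the 71 animals, though the call of GATA2 was lost with no animal block.

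FCN3, a ficolin of the lectin pathway of complement, changed by -0.47 ± 0.09, and by -0.45 ± 0.09 in the 71 animals. AQP1, the water channel of capillaries, changed by -0.24 ± 0.06, and EPAS1, the hypoxia-inducible factor of endothelium, by -0.21 ± 0.04, and both passed in the 71 animals, at -0.23 ± 0.06 and -0.20 ± 0.05. EPAS1 was the only fall among 12 tested angiogenic factors and receptors in 95 animals. The 2 rises of that list were APLN at 0.49 ± 0.12 and HIF1A at 0.15 ± 0.04 (edgeR adjusted p = 0.00316 and 0.00884). In the 71 animals APLN was higher on HCHF in 46 and lower in 25, and HIF1A higher in 41 and lower in 30. Whether these 2 rises passed in the 71 is not reported here. VEGFA, the growth factor that the fibres send to capillaries, had 43, 124 and 369.5 CPM on HCHF and 59.2, 116 and 372 CPM on LCLF, with a change of -0.00 ± 0.06, and of -0.06 ± 0.07 in the 71. A vein marker went the other way, since SELP, P-selectin, was 0.43 ± 0.14 in 95 animals, but 0.26 ± 0.15 in the 71, where it did not pass (edgeR adjusted p = 0.0283 and 0.315). F8, coagulation factor VIII, made by endothelium, was chosen after its value was seen and changed by -0.61 ± 0.09, and by -0.63 ± 0.10 in the 71.

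The endothelial falls were smaller where the other sets were left out. FLT1 was -0.26 ± 0.05 without the animals apart on the first axis and -0.29 ± 0.05 without those with hepatocyte markers, and the endothelial list had 3 and 5 genes lower there. In the 45 animals outside all 3 sets, FLT1 was -0.20 ± 0.07, ESAM -0.15 ± 0.05 and CA4 -0.44 ± 0.09, and of these only CA4 passed (edgeR adjusted p = 0.113, 0.124 and 0.0104). The summed endothelial markers were 142.0, 349.0 and 1162 CPM on HCHF and 154.3, 374.7 and 1311 CPM on LCLF, higher on HCHF in 38 of 95 animals. Of 12 markers of pericytes and smooth muscle 2 rose and 2 fell, and 0 rose and 1 fell in the 71 animals.

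Some matrix and macrophage genes rose on HCHF. Of 25 extracellular matrix genes 5 rose and 0 fell (median 0.14), but 0 and 0 in the 71 animals (median 0.07). COL1A1, a chain of fibrillar collagen, had 5.97, 28.6 and 587 CPM on HCHF and 3.33, 20.9 and 148 CPM on LCLF. Only the top of the HCHF range stood clear of LCLF, and COL1A1 was higher on HCHF in 58 animals. Its change was 0.52 ± 0.16, and 0.33 ± 0.18 in the 71 (edgeR adjusted p = 0.0155 and 0.277). COL3A1, another fibrillar collagen, was 0.41 ± 0.11, and 0.32 ± 0.12 in the 71, where it did not pass (adjusted p = 0.109). Of 9 markers of fibroblasts and fibro-adipogenic progenitors 2 rose and 0 fell, and 1 rose in the 71 animals. SMOC2, a matricellular protein, was 0.30 ± 0.07, and 0.29 ± 0.08 in the 71.

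Of 10 tested macrophage markers 6 rose and 0 fell in 95 animals, and 1 rose in the 71, with medians of 0.41 and 0.36. CSF1R, the receptor that macrophages need to survive, had 0.727, 3.92 and 25.8 CPM on HCHF and 0.715, 2.81 and 16.5 CPM on LCLF. Its change was 0.44 ± 0.12, and 0.42 ± 0.14 in the 71 animals (edgeR adjusted p = 0.00665 and 0.0479). CD68, a lysosomal macrophage protein, was 0.42 ± 0.11, and 0.34 ± 0.13 in the 71, where it did not pass (adjusted p = 0.0883). VSIG4, a complement receptor of resident macrophages, was 0.54 ± 0.17, and 0.61 ± 0.20 in the 71 (adjusted p = 0.0238 and 0.0504). The summed macrophage markers were higher on HCHF in 58 of 95 animals and in 40 of the 71.

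Of 6 tested T and NK cell markers 5 rose and 0 fell, and 1 rose in the 71 animals. Of 3 tested markers of B and plasma cells 0 passed by edgeR in either, and all 6 of these markers summed to a median of 4.47 CPM on HCHF and 4.53 CPM on LCLF. PRF1, perforin, had 0, 0.612 and 6.13 CPM on HCHF and 0, 0.443 and 1.84 CPM on LCLF, with libraries at 0 on both diets. Its change was 0.51 ± 0.12, and 0.42 ± 0.13 in the 71 (edgeR adjusted p = 0.00208 and 0.0318). Of 7 inflammation genes 2 rose, and 1 in the 71, among them NFKB1, a subunit of NF-kappa B, at 0.14 ± 0.03 in 95 animals and in the 71 at 0.14 ± 0.04. STAT3, a transcription factor downstream of interleukin receptors, was chosen after its value was seen, as another of the 10 smallest p-values. It had 65.2, 125 and 338 CPM on HCHF and 61.5, 104 and 182 CPM on LCLF, and was higher on HCHF in 76 of 95 animals. Its change was 0.26 ± 0.04 in both sets of animals (edgeR adjusted p = 5.09e-07 and 3.15e-05).

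Of 7 tested markers of macrophages loaded with lipid, 0 rose and 1 fell, FABP5, a fatty acid binding protein, at -0.27 ± 0.08 and at -0.35 ± 0.09 in the 71. The median of the list was 0.14, with changes from -0.37 to 0.84, so its members moved in both directions. ITGAX, an integrin gene of myeloid cells that the list does not count, was chosen after its value was seen, for its small p-value. Its change over all animals was 0.66 ± 0.09 (edgeR adjusted p = 3.8e-07), and it was higher on HCHF in 51 of the 71. Which cells carried this rise was not tested. Interferon-stimulated genes (19 tested) gave 0 higher and 1 lower, and antigen presentation (6 tested) 0 higher and 1 lower, and neither list had a call in the 71 animals by edgeR. Red blood cell genes varied widely without a call: HBB, beta globin, had 3.82, 62.9 and 4583 CPM on HCHF and 3.13, 93.3 and 2958 CPM on LCLF, a change of -0.28 ± 0.29, and of -0.58 ± 0.30 in the 71. Summed hepatocyte markers were higher on HCHF in 34 of the 71 animals. Their part in the changes of other genes was not tested beyond the fits without those animals.

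The 15 largest rises by rule included ACHE, of the neuromuscular junction list, and KCNC1, of the excitation list. They also included PPP1R1B, which is on neither list. PPP1R1B, an inhibitor of protein phosphatase 1 best known from striatal neurons, had 1.11, 10.8 and 76.5 CPM on HCHF and 0.284, 5.28 and 45 CPM on LCLF. Although the ranges overlapped, it was higher on HCHF in 75 of 95 animals and in 54 of the 71. Its fold was 1.84 (log2 0.88 ± 0.12), and the log2 value was 0.88 ± 0.13 in the 71 animals and 0.94 ± 0.17 in the 45 outside all 3 sets (edgeR adjusted p = 5.02e-07, 1.63e-05 and 0.00381).

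ACHE, the acetylcholinesterase that ends transmission at the junction, had 3.09, 18.8 and 214 CPM on HCHF and 0.881, 12.8 and 68.9 CPM on LCLF. Its change was 0.84 ± 0.15, and 0.57 ± 0.11 in the 71 animals (edgeR adjusted p = 9.86e-05 and 0.000659). COLQ, the collagen tail that anchors this enzyme, was 0.51 ± 0.13, but 0.27 ± 0.14 in the 71, where it did not pass (adjusted p = 0.225). Of 11 tested junction genes 3 rose and 2 fell in 95 animals, and 1 rose and 0 fell in the 71. CHRNA1, a subunit of the acetylcholine receptor named after its value was seen, was 0.44 ± 0.16, and 0.44 ± 0.19 in the 71. CHRNB1, another subunit, was -0.15 ± 0.04, and -0.11 ± 0.04 in the 71, and neither passed there (edgeR adjusted p = 0.151 and 0.111).

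Of 18 genes of excitation and calcium release 2 rose and 3 fell in 95 animals, and 1 rose and 0 fell in the 71. The genes that rose encode potassium channels of the Kv3 family, KCNC4 and KCNC1. KCNC4 had 13.3, 68.9 and 170.3 CPM on HCHF and 12.1, 53.1 and 149 CPM on LCLF and was higher on HCHF in 71 animals. Its change was 0.37 ± 0.07, and 0.40 ± 0.06 in the 71 animals (edgeR adjusted p = 4.66e-05 and 3.15e-05). KCNC1 was 0.84 ± 0.18 in 95 animals, but 0.52 ± 0.18 in the 71, where it did not pass (adjusted p = 0.0705). TSPAN2, a tetraspanin, was 0.80 ± 0.17 and 0.58 ± 0.17 in the 71, and KLF5, a Krueppel-like factor, 0.60 ± 0.13 and 0.46 ± 0.13, both past the threshold in both fits.

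Changes of several top genes went with that of BARX2, a gene of the patterning score, over the 95 animals. Pearson r, not tested, was 0.79 for SBK2, 0.69 for ACHE, 0.53 for KCNC1, 0.51 for TSPAN2 and 0.13 for PPP1R1B. SBK2, a kinase, had 0, 2.11 and 374 CPM on HCHF and 0, 1.61 and 169 CPM on LCLF, with medians close together and a long upper tail. Its change of 1.19 ± 0.35 was 0.25 ± 0.19 in the 71 animals and did not pass (edgeR adjusted p = 0.45). Within the set SBK2 had 18.7, 105.8 and 374.5 CPM, against 0, 1.45 and 209.4 CPM in the other libraries. PITX1 was 0.66 ± 0.18, but 0.26 ± 0.11 in the 71 (edgeR adjusted p = 0.142).

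The genes described next, with log2 changes above 1, were chosen after their values were seen. BARX2 at 1.95 ± 0.44 is part of the patterning score and was too low to be tested in the 71 animals. IRX3, also part of it, was 1.25 ± 0.34, and 0.13 in the 71. ADGRB2, an adhesion receptor, was 1.08 ± 0.17 and still 0.63 ± 0.16 in the 71 animals (edgeR adjusted p = 0.0124). ETV4, an ETS factor, was 1.14 ± 0.31, and 0.89 ± 0.37 in the 71 animals, where it did not pass (edgeR adjusted p = 0.132). LOC103878762, which has no assigned symbol, had 0.356, 4.67 and 33.9 CPM on HCHF and 0.103, 1.97 and 16.3 CPM on LCLF. It was higher on HCHF in 82 of 95 animals, the most of any gene tested, at 1.15 ± 0.12, and at 0.96 ± 0.12 in the 71 (edgeR adjusted p = 4.18e-12 and 6.95e-07).

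**Figure D4:**
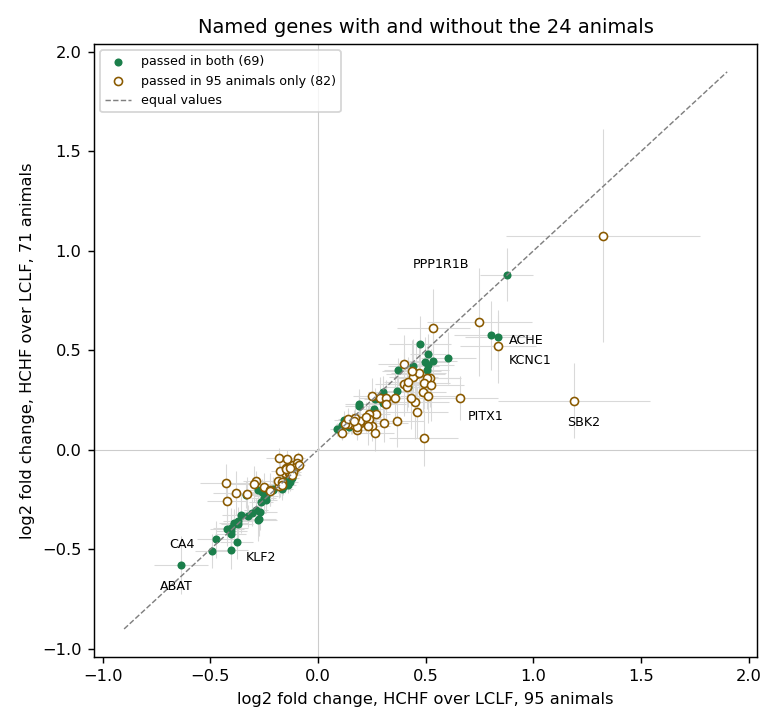
log2 fold change of HCHF over LCLF for the genes selected by rule that passed in 95 animals, in all 95 animals (x axis) and in the 71 with no library in the patterning set (y axis), with standard errors. Filled points passed in both and open points in 95 animals only, and SBK2 lies far below the dashed line of equal values while PPP1R1B lies on it.

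The largest falls by rule also included ABAT and GCAT. ABAT, the transaminase that degrades GABA, had 0.297, 3.12 and 109.9 CPM on HCHF and 0.966, 6.07 and 25.7 CPM on LCLF. It fell by 0.64 ± 0.13 on the log2 scale, and by 0.58 ± 0.15 in the 71 animals (edgeR adjusted p = 0.000312 and 0.011), but was -0.07 and not past the threshold once the animal block was left out. GCAT, a ligase of threonine breakdown, had 2.81, 7.54 and 37.7 CPM on HCHF and 3.76, 9.81 and 21.1 CPM on LCLF. It was lower on HCHF in 75 of 95 animals, at -0.39 ± 0.06, and at -0.38 ± 0.07 in the 71 (edgeR adjusted p = 3.64e-06 and 0.00032). IVD, an enzyme of leucine breakdown, was -0.25 ± 0.06, and -0.24 ± 0.07 in the 71. It was the only call among 17 genes of branched-chain amino acid breakdown in 95 animals, below the 7.91% lower among all genes, while 2 of the 17 fell in the 71 animals and 4 in the 45, with 0 higher in either. Of 9 genes of other amino acid metabolism 2 fell and 0 rose, ABAT and GPT, the alanine transaminase (-0.28 ± 0.09, and -0.35 ± 0.10 in the 71, where 2 of the 9 fell as well).

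Of 20 genes of insulin signalling and glucose uptake 4 rose and 0 fell, and 1 rose and 0 fell in the 71 animals. PTPN1, the phosphatase that switches off the insulin receptor, had 10.4, 15.4 and 49.4 CPM on HCHF and 9.41, 14.3 and 21.2 CPM on LCLF. Its change was 0.15 ± 0.03, and 0.12 ± 0.03 in the 71 animals (edgeR adjusted p = 0.000429 and 0.00739). GRB10, an adaptor that inhibits the receptor, was 0.18 ± 0.05, GRB14, its relative, 0.49 ± 0.16, and IRS1, the receptor's main substrate, 0.25 ± 0.09. In the 71 animals GRB10 was 0.10 ± 0.05, GRB14 0.06 ± 0.14 and IRS1 0.27 ± 0.09, and none of these 3 passed (adjusted p = 0.211, 0.832 and 0.0603).

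Sterol genes changed little in muscle. Of 19 cholesterol synthesis genes 1 rose and 2 fell, shares near the background of 6.7% and 7.91%, and 0 and 0 in the 71 animals. Of 9 genes of LXR, a sterol sensor, and sterol efflux 1 rose and 0 fell, in 95 animals and in the 71. Of 18 clock genes 2 rose and 1 fell, and 2 rose and 0 fell in the 71. CLOCK was 0.11 ± 0.03, and 0.13 ± 0.03 in the 71. DBP, an output gene of the clock, was -0.38 ± 0.11, but -0.22 ± 0.11 in the 71 animals, where DBP did not pass (edgeR adjusted p = 0.232).

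Further lists are set beside all genes tested, of which 6.7% were higher and 7.91% lower in 95 animals. In the 71 animals these shares were 2.45% and 3.39%. Of 30 proteasome genes 4 fell, a share above that of all genes, and 1 in the 71 animals, a share near it. Of 15 ubiquitin ligase and autophagy genes 1 fell in both sets of animals, and 0 of 8 denervation and regeneration genes passed in either by edgeR. FBXO32, a ubiquitin ligase of muscle wasting, was -0.09 ± 0.07, and -0.02 ± 0.07 in the 71, and passed in neither. Of 15 mitochondrial regulators 3 rose in 95 animals, a share above that of all genes, and 0 in the 71.

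The change in muscle was tested against that in liver and in adipose tissue for all genes kept in both. ACHE and TM7SF2 are given because they were picked for large positive differences from liver, so their p-values are those of selected genes. ACHE changed by 0.76 ± 0.17 in muscle and by 0.07 ± 0.13 in liver of the same 80 animals (difference 0.68 ± 0.19, higher in muscle in 52 animals, limma adjusted p = 0.003). Without the animals of the patterning set the difference was 0.59 in 60 animals (limma adjusted p = 0.00819). TM7SF2, a reductase of cholesterol synthesis, changed by -0.08 ± 0.05 in muscle and by -0.68 ± 0.10 in adipose tissue of 91 animals, a difference of 0.60 ± 0.11 (limma adjusted p = 7.2e-05).

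Within-animal changes of 6 genes, taken as examples of the groups above, were correlated over the 95 animals in 15 pairs. CPT1B and PDK4 changed together, with Pearson r = 0.566 and Spearman rho = 0.511 (permutation test, two-sided, p = 1e-05 for each, the smallest that 100000 resamples can give, adjusted p = 0.00015). Within batches r was 0.551 (16 animals) and 0.576 (79 animals). It was 0.539 without the 2 animals farthest from the median and 0.623 in the 71 animals. PDK4 itself did not pass the test of diet, and animals in which it was higher on HCHF were also those in which CPT1B tended to be.

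MYLPF and ESAM, a fast fibre and an endothelial gene, also changed together (r = 0.431, rho = 0.378, permutation adjusted p = 0.00015 and 0.00172). This held in batch 2 (r = 0.521) and not in batch 1 (r = 0.039). It was 0.353 without the 2 farthest animals and 0.515 in the 71. Without the 17 animals with a library apart on the first axis, r was 0.188 in 78 animals and did not pass (permutation adjusted p = 0.214). The relation was thus weaker without those animals, and the difference between the values of r was not tested. COL1A1 and CSF1R gave r = 0.279 and rho = 0.351 (permutation adjusted p = 0.0325 and 0.0023). PDK4 and MYLPF gave r = -0.257 and rho = -0.238, where only the first passed (permutation adjusted p = 0.0447 and 0.0744). The other 11 pairs did not pass.

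**Figure D5:**
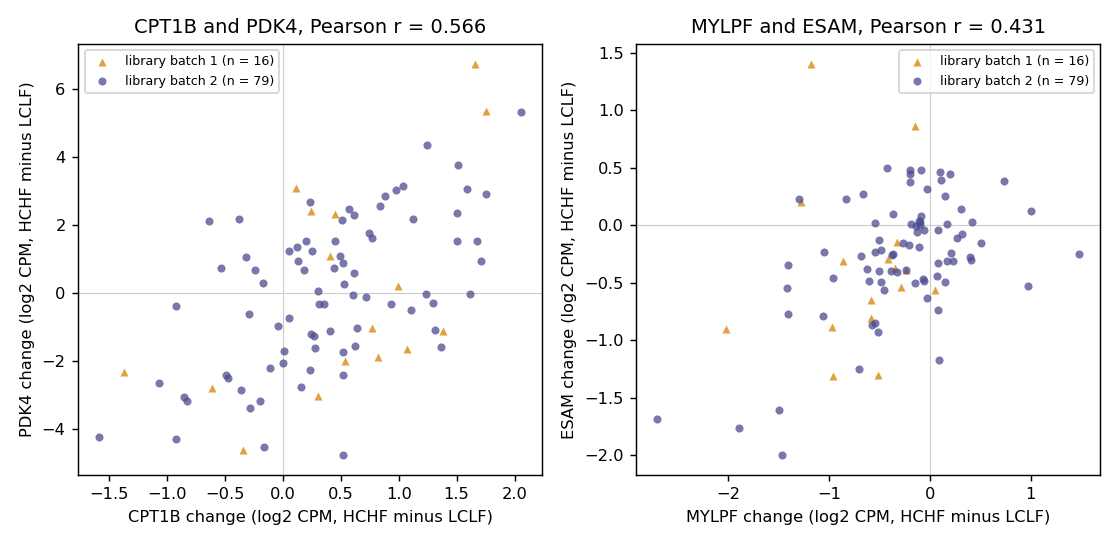
Within-animal change of log2 CPM, HCHF minus LCLF, for CPT1B (x) and PDK4 (y) on the left and for MYLPF (x) and ESAM (y) on the right. Each point is an animal, triangles are library batch 1 and circles batch 2, and the point clouds slope upwards with r = 0.566 and r = 0.431.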

How the data were processed

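The labels' protocols give about 10 mg of frozen tissue per RNA extraction and all libraries of an animal in the same extraction, library and sequencing batches. The submitters' processing notes list STAR 2.7.7a, featureCounts and FastQC. The sources used here do not give their settings, a genome build, an annotation or the use of strand. The authors deposited unnormalized whole-number gene counts for 588 libraries and for the 570 kept by their quality control, by criteria likewise not given. In the larger table, 586 columns were not used. Batches were assigned from a principal component of mean expression per animal, which separated 16 animals from 83.

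Counts of the 190 muscle libraries were scaled by TMM, filtered by filterByExpr (minimum count 10) and tested in R 4.3.3 by edgeR 4.0.16 with its quasi-likelihood test. The fit had 1 common dispersion, estimated on 1000 genes, and the animal as a block, with Benjamini-Hochberg adjustment over all genes tested and a threshold of 0.05. A standard error is the fold change divided by the square root of F. Marker sums are CPM of all counts. Differences between tissues were tested by limma 3.58.1 on changes of log2 CPM (prior count 2) within animals. Alternatives included DESeq2 1.42.0.

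Members, lists and tests were chosen with earlier results of these data known. The sets of libraries that stand apart, and the fits without them, were chosen after seeing the data. Named genes were the 15 largest rises and 15 largest falls with a symbol, at least 5 CPM on average and the same direction in at least 65% of animals, up to 4 called members of each list, anchor genes whatever their result, and genes for the tissue differences. Of 944 list entries 899 have a gene in the table. Some genes that this rule selects are not reported here.

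The labels give the pairing by animal. To check it, both libraries of an animal were compared in their deviations from the group means, which correlated at a median of 0.478, against 0.00618 between animals of a batch, over 0.1 in 90 of 95 animals. For 73 of the 95 LCLF libraries the HCHF library of the same animal correlated best, and 0 libraries were identical. The edgeR test of the diet effect in muscle was also tried on simulated data (1500 genes, 200 changed). It recovered 61% of changes of 0.2 and 96% of changes of 0.5 on the log2 scale, with 2.48% false calls. The simulated counts were drawn independently for each gene around the animals' means. No set of libraries apart, such as the patterning set, was built in, so these shares need not hold for the real libraries.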

Additional observations from a re-analysis of the deposited data

Results flagged for a closer look

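The change between the diets in muscle differed from that in liver and in adipose tissue of the same animals, with the same sign, for 525 genes with a symbol and at least 5 CPM in muscle (limma, trended variance, adjusted p under 0.05 in both, 80 and 91 animals). Muscle was above both tissues in 334 of the 525 and below both in 191. The total of tested genes meeting the same limits was not counted, so no share is given. Over all 12553 genes tested against liver, 2064 were above in muscle and 2085 below. Against adipose tissue 939 were above and 754 below, of 13190. Of the 525, the 4 with the largest positive and the 4 with the largest negative difference from liver are given. ACHE changed more in muscle than in liver by 0.68 ± 0.19 and than in adipose tissue by 1.00 ± 0.21, the second of which was 0.62 without the animals of the patterning set and still passed (limma adjusted p = 0.00523). MAP3K7CL did so by 0.60 ± 0.21 and 0.70 ± 0.20, and MYOM3, a sarcomere protein, by 0.59 ± 0.18 and 0.44 ± 0.15. Without the animals of the patterning set, MAP3K7CL was 0.54 and 0.60 and MYOM3 0.33 and 0.22, and none of these 4 differences passed (limma adjusted p = 0.0783, 0.0833, 0.184 and 0.42). TM7SF2 differed by 0.57 ± 0.09 and 0.60 ± 0.11, where muscle changed little (-0.05 and -0.08) and liver and adipose tissue were lower on HCHF by -0.62 and -0.68.

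The other 4 genes had a change in muscle below that in the other tissues. UCHL1, a ubiquitin hydrolase, changed by -0.36 in muscle and 4.28 in liver (difference -4.63 ± 0.28), and by -0.39 in muscle and 0.80 in adipose tissue (difference -1.19 ± 0.26). LOXL1, a collagen crosslinking enzyme, differed by -1.53 ± 0.13 from liver and -0.42 ± 0.08 from adipose tissue, and MAP1A, a microtubule protein, by -1.52 ± 0.14 and -0.40 ± 0.11. HBB differed by -1.45 ± 0.31 and -1.12 ± 0.31. Without the animals of the patterning set, the differences from adipose tissue were -0.26 for MAP1A and -1.60 for HBB, which did not pass (limma adjusted p = 0.126 and 0.237), and -0.77 for UCHL1 and -0.44 for LOXL1, which did (0.00109 and 0.000881).

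An LCLF muscle library that the authors left out, that of animal 15545, held more of its counts on markers of 8 other cell types than any of the 95 LCLF libraries compared. The shares were 0.205% for endothelium, 0.318% for pericytes and smooth muscle, 1.01% for fibroblasts and fibro-adipogenic progenitors, 0.136% for macrophages, 0.0378% for T and NK cells, 0.022% for B and plasma cells, 0.211% for adipocytes and 0.0665% for Schwann cells and nerve. Its fast fibre markers held 0.0229% of counts.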

How the results depend on the processing

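The 912 higher and 1077 lower genes became 442 and 133 with no replicate block (a block by animal) and 411 and 132 in DESeq2 with no replicate block. They became 2 and 0 in library batch 1 alone and 500 and 575 in batch 2 alone. Fits chosen after seeing the data gave 1610 and 1675 with the first axis as a covariate, 416 and 493 without animals with hepatocyte markers above 100 CPM, 333 and 461 without animals apart on patterning genes and 67 and 67 without animals of any set apart. The causes of these moves were not tested. The fits of a batch alone or without some animals hold fewer animals, and what that number contributes was not tested either. RLE size factors, other filters, a trended dispersion, limma-voom, DESeq2 with the block, the added libraries and the fits without animals in doubt or apart on the first axis stayed within 1.5 times of both counts. With no block, 303 of the higher and 133 of the lower genes were shared. HILPDA reversed in batch 1 alone (-0.18), and without animals of any set apart SEMA3G (0.0014), ESRRG (-0.0068) and THRSP (-0.0343) reversed, none past the threshold. Depth limits genes near 1 CPM, among them PRF1 and SELP.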
